A study of Mus musculus with 48 samples.

Results

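Cardiomyocytes of 2 inbred mouse strains, wild-type C3H and wild-type C57, were compared on day 3 after ACF, an operation by which the series models volume overload of the heart (usually read as aortocaval fistula). The 6 libraries compared here, of 48 in the series, were chosen by their column names: 3 wild-type C3H libraries (470, 471 and 486) and 3 wild-type C57 libraries (465, 489 and 490). The genotype label of the C57 libraries was WT C57B6J and that of the C3H libraries was WT C3H, which the series design gives as C3H/HeN. Ages were not given, and no library of these groups carried an exchanged mitochondrial genome. The series also holds mice with exchanged nuclear and mitochondrial genomes, and sham-operated animals of every genotype. Libraries of the exchange mice with the surgery in their titles helped set the scaling and the spread of the model used here. Of the wild-type sham libraries, 3 per strain had the surgery in their titles and 6 per strain had a sham treatment label but no surgery word in the title. Cells came from digested hearts after removal of the atria and the right ventricle, and their messenger RNA was sequenced.

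Volume overload stretches the ventricular wall, and the heart muscle cell responds with genes of its stress and fetal programmes, such as the natriuretic peptides, skeletal actin and the slow myosin heavy chain. Inbred strains differ in how they carry such a load, and they also differ at many genes whatever the load, because the 2 genomes hold different alleles. A strain difference seen after surgery therefore needs to be read beside the same difference after sham surgery.

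One C57 library stood apart, so the counts of genes are given with and without it. The mean level of 12 cardiomyocyte markers was 9.06 in library 489 and between 11.24 and 12.05 in the other 23 libraries whose titles carry the surgery (log2 CPM, a library's counts scaled to a common total). The mean of 12 erythrocyte markers was 7.39 in library 489, against values from -0.85 to 3.43 in the others. The others include libraries of mice with exchanged genomes, and the value of 3.43 was that of exchange library 6693. Marker means of macrophages (4.69), neutrophils (2.62), fibroblasts (6.85) and mesothelial and epicardial cells (5.50) were also above the highest of the other 23 libraries. The 6 most abundant genes took 64.0% of the counts of library 489, against 40.9% to 50.3% in the other ACF libraries here. Over all the other 23 libraries this share ran from 40.2% to 63.3%. In the other 5 ACF libraries the cardiomyocyte mean lay between 11.73 and 12.05 and the erythrocyte mean between -0.51 and -0.03. Over the 6 libraries the smooth muscle and pericyte, the adipocyte and the Schwann and neuron marker means had an exact two-sided permutation p of 0.1, the smallest that 3 against 3 allows, and the other 9 marker means had larger values. In bulk libraries fewer cells of a type and less RNA per cell cannot be told apart. The part that the other cell types of library 489 play in the strain difference was not tested, and the fit without it measures the strain difference on 5 libraries. The 6 libraries held 16.33 to 20.66 M counts each.

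The strains differed after ACF in genes of many kinds, in both directions. Without library 489, 1058 of 13544 genes tested passed edgeR's quasi-likelihood test at an adjusted p under 0.05 (7.81%), 520 higher in C3H (3.84%) and 538 lower (3.97%). Genes past this threshold are called different below. The median absolute difference of the called genes was 1.12 on the log2 scale. Of them, 602 differed over 2-fold, 147 over 8-fold and 145 by less than 1.5-fold. With library 489, 1626 of 13440 genes were called (12.1%), 624 higher (4.64%) and 1002 lower in C3H (7.46%). Both fits called 392 of the same genes higher and 309 of the same genes lower in C3H, and none called in both changed sign. The share of calls that were higher in C3H was 38.4% with library 489 and 49.1% without it. The counts also rested on other libraries: without library 489, leaving out C57 library 465 as well left 433 calls and leaving out library 490 left 496, each with 1 C57 library whose spread was taken from the other groups. Every one of the 6 libraries carries its own L code in its title, a code the labels do not explain, and with this code as a factor across the groups 232 genes passed without library 489.

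The genes that library 489 added were mainly lower in C3H. Of 925 genes called only with it, 693 were lower in C3H, and 71 of the 925 changed sign when it was left out. Of 357 genes called only without it, 128 were higher and 229 lower in C3H. Lists of blood and stromal genes, and the list of immediate early genes, showed this plainly. With library 489 all 8 measured erythrocyte markers and 7 of 10 mesothelial and epicardial markers were called lower in C3H. So were 8 of 39 extracellular matrix genes and 8 of 26 immediate early genes. Without it 1, 0, 0 and 1 of these were lower. Of the mesothelial and epicardial markers, 8 of 10 had a negative difference without library 489 (median -0.79, with 4 of the 10 at an unadjusted p under 0.05). In the 12 sham libraries without a surgery word 7 of 10 were called lower (median -1.71), against 15.8% of all genes tested called in either direction. Hba-a2, an alpha globin gene, had 957, 330 and 483 counts in the C3H libraries, 150 and 326 in C57 libraries 465 and 490, and 904062 in library 489. Alas2, the erythroid enzyme that starts haem synthesis, had 7 to 35 counts in the 5 other libraries and 58404 in library 489. In these genes library 489 alone was high, and in log2 CPM the strains overlapped without it. The values below are those of the fit without library 489 unless the sentence says otherwise.

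**Figure D1:**
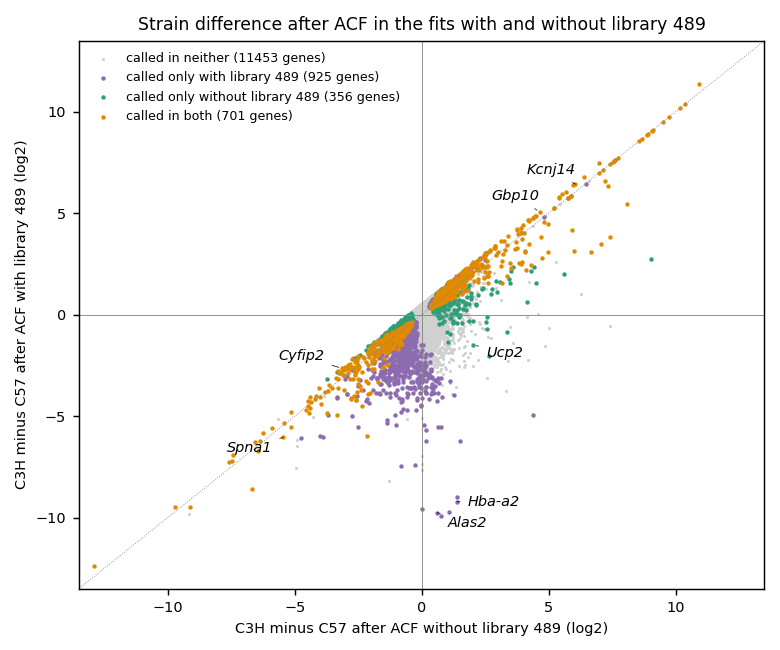
Each point is a gene, placed by its C3H minus C57 difference after ACF without library 489 (horizontal axis, log2) and with it (vertical axis, log2), and colours mark the fit in which edgeR called it. Genes called in both fits have the same sign in both, and some, such as Wdr92 and C4b, lie off the dotted line of equal values. Most genes called only with library 489 lie below zero on the vertical axis (693 of 925). A gene tested in 1 fit alone is not drawn.

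The 12 genes with the largest differences in both fits that were higher in C3H included Gbp10, Wdr92, Fmn1, Baiap2l1 and Adamts13. Genes of this ranking, in either direction, had to show no overlap between the strains over all 6 libraries. Levels are given in log2 CPM in the order C3H 470, 471 and 486, then C57 465, 489 and 490. Gbp10, an interferon-inducible guanylate-binding protein, stood at 6.05, 6.35 and 7.10 in C3H and at 1.74, 0.13 and 2.12 in C57. Every C3H library was above every C57 library, and the difference was 4.66 ± 0.47 (log2, SE; 25.3-fold; edgeR adjusted p = 1.19e-06). Its near-identical relatives share reads with it, so the split between them is uncertain. Fmn1, a formin that nucleates actin filaments, was at 4.38, 4.99 and 5.07 in C3H and at 0.33, 2.29 and 1.00 in C57 (4.22 ± 0.37). Baiap2l1, an adaptor that links curved membrane to actin, was at 6.59, 6.78 and 7.22 against 3.03, 2.55 and 3.21 (3.79 ± 0.23). By the choice of genes the strains did not overlap in either gene, which placed library 489 on the C57 side of the gap.

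Adamts13, the protease that cleaves von Willebrand factor, was 12.7-fold higher in C3H (3.67 ± 0.28, log2, SE, and 3.25 with library 489). Pygl, the liver isoform of glycogen phosphorylase, stood at 4.28, 4.23 and 4.49 in C3H and at 1.17, 4.04 and 1.33 in C57. Here library 489 came within a small distance of the C3H libraries while the other C57 libraries were far below, and the difference was 3.15 ± 0.23 without library 489 and 1.54 with it. Wdr92, a WD-repeat cofactor of a chaperone that helps assemble dynein arms, was at 9.09, 8.87 and 9.96 in C3H and at 4.94, 8.23 and 5.21 in C57. It showed the same placing of library 489, with a difference of 4.31 ± 0.39 without that library and 2.45 with it. Rbp7, a cellular retinol-binding protein, differed by 3.50 ± 0.40 (2.30 with library 489), Lims2, a focal adhesion adaptor of integrin-linked kinase, by 2.62 ± 0.32 (1.89 with it), and Wdfy1, an endosomal phosphoinositide-binding protein, by 2.21 ± 0.21 (1.60 with it). Gbp10, Wdr92, Fmn1, Baiap2l1, Adamts13, Rbp7, Pygl, Lims2 and Wdfy1 passed in all 14 other settings tried.

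The 12 such genes lower in C3H included Cyfip2, Hspa12a, Lgals4, Emilin2 and C4b. Cyfip2, a subunit of the WAVE complex that drives branched actin, stood at 4.45, 4.63 and 4.42 in C3H and at 7.74, 4.77 and 7.53 in C57. C57 library 489 was just above the C3H range and the other C57 libraries were well above it, with a difference of -3.13 ± 0.21 (log2, SE; 8.78-fold; edgeR adjusted p = 4.55e-09). Hspa12a, a distant member of the heat shock protein family, was at 2.31, 2.73 and 1.19 against 4.82, 4.61 and 4.82 (-2.62 ± 0.25). Lgals4, a galectin that binds sugar chains, was at 1.14, 2.13 and 2.45 against 4.63, 7.41 and 4.50 (-2.58 ± 0.33, and -4.21 with library 489). In Lgals4 library 489 was the highest of all, and by the choice of genes the strains did not overlap in either gene.

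Emilin2, an extracellular matrix glycoprotein, was 5.19-fold lower in C3H (-2.37 ± 0.24, and -2.82 with library 489). C4b, a complement component with a near-identical neighbour that leaves its value uncertain, had 39, 103 and 77 counts in C3H and 277, 3464 and 481 in C57, a difference of -2.36 ± 0.55 (-4.51 with library 489). Its call was lost when C57 library 490 or C3H library 470 was also left out, or with the L code as a factor. Nedd1, which recruits gamma-tubulin to the centrosome, differed by -1.89 ± 0.15 (-1.60 with library 489), and Hjurp, the chaperone that loads the centromere histone, by -1.53 ± 0.34 (-2.60 with it). Lama5, the laminin alpha chain of many basement membranes, was at 5.80, 6.11 and 6.11 in C3H and at 7.62, 7.58 and 7.22 in C57 (-1.41 ± 0.29). For Lama5 library 489 lay among the C57 libraries, as it did for Gramd1b, a sterol transfer protein (-1.26 ± 0.17). Smaller differences were those of Cds2, an enzyme of phosphatidylinositol synthesis (-1.18 ± 0.19), Gas5, a long noncoding RNA that hosts small nucleolar RNAs (-1.15 ± 0.21), and Ppp1r9a, an actin-binding scaffold of protein phosphatase (-1.11 ± 0.21). Hjurp and Lama5 lost their calls when library 465 was also left out.

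**Figure D2:**
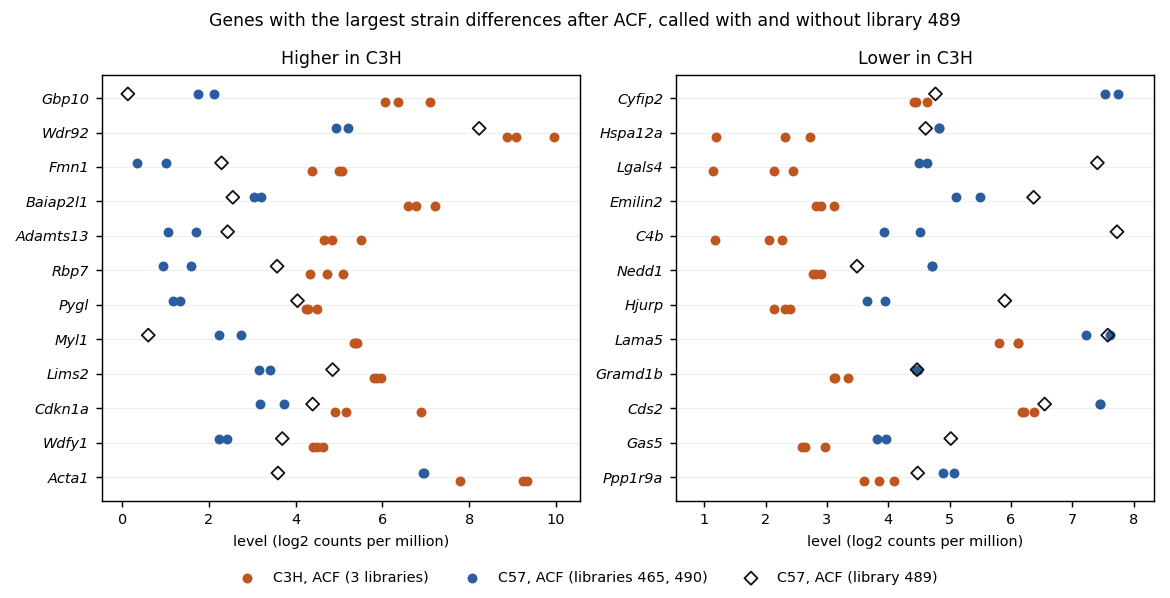
Level of each gene (log2 CPM) in the 3 C3H ACF libraries, C57 ACF libraries 465 and 490 and C57 ACF library 489, for the 12 named genes higher and the 12 lower in C3H with the largest differences in both fits. In every gene drawn the C3H libraries lie on one side of all C57 libraries, which the choice of genes required. Library 489 lies nearer to the C3H libraries than to the other C57 libraries for several genes, such as Pygl, Wdr92, Rbp7, Wdfy1, Cyfip2, Nedd1 and Cds2.

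Some contractile isoforms were higher in C3H. Of 11 measured fetal and slow contractile genes, 3 were higher in C3H and none lower (27.3%, against 7.81% of all genes tested; median difference 0.30 on the log2 scale, against 0.02 over all genes tested). After sham, 3 of the list were called higher and 0 lower in the titled libraries, where 6.49% of all genes tested were called. In those without a surgery word 6 were higher and 0 lower, where 15.8% of all genes tested were called. Myl1, a fast skeletal myosin light chain, stood at 5.34, 5.40 and 5.42 in C3H and at 2.23, 0.60 and 2.74 in C57, a difference of 2.90 ± 0.33 that held in all 14 other settings. Acta1, the skeletal alpha actin that heart muscle expresses again under load, stood at 9.24, 7.79 and 9.33 in C3H and at 6.95, 3.59 and 6.93 in C57 (2.00 ± 0.60, edgeR adjusted p = 0.0429). C3H library 471 was nearer to C57 than the other C3H libraries were. After sham, Myl1 differed by 2.33 in the titled libraries and by 3.23 in those without a surgery word. Acta1 differed by 0.73 in the titled sham libraries (adjusted p = 0.532 in edgeR). In the sham libraries without a surgery word its difference was 1.82 (adjusted p = 0.00184 in edgeR). Acta1 was not called when C3H library 470 or 486 or C57 library 465 or 490 was also left out, or with the L or D code of the titles as a factor. Tnnt1, slow skeletal troponin T, differed by 1.03 ± 0.26 and lost its call without 486, 465 or 490. With library 489, 3 genes of this list were called higher and 3 lower.

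Myh6, the adult cardiac myosin heavy chain, stood at 14.40, 14.41 and 14.64 in C3H and at 14.82, 12.10 and 15.15 in C57 (-0.50 ± 0.20, adjusted p = 0.151 in edgeR). C57 libraries 465 and 490 were slightly above the C3H libraries and library 489 was well below them. Myot, a Z-disc protein, was the 1 gene called among 24 adult sarcomere and Z-disc genes, at 6.38, 5.61 and 7.34 against 4.84, 2.61 and 4.81 (1.79 ± 0.38). Fhl1, a stretch-responsive LIM protein of the sarcomere, stood at 7.74, 6.69 and 7.89 in C3H and at 5.97, 6.10 and 6.22 in C57, higher in C3H by 1.43 ± 0.30, with the same difference when library 489 was included. Klhl30, a kelch-domain protein, was lower in C3H (-0.92 ± 0.23). These were the 2 called of 21 stress and hypertrophy genes (9.52%), 16 of which had a positive difference (median 0.50). The share called among the adult sarcomere and Z-disc genes was 4.17%, and among all genes tested 7.81%. Myot lost its call without 465 or 490, Fhl1 without 465, and Klhl30 without 486, 465 or 490.

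None of 7 measured natriuretic peptide and receptor genes was called in edgeR, with 3 at an unadjusted p under 0.05. Nppa, the atrial natriuretic peptide made by loaded ventricles, stood at 6.49, 5.56 and 7.41 in C3H and at 4.10, 5.92 and 5.05 in C57. C3H library 486 was the highest and library 489 lay within the C3H range, and the difference of 2.03 ± 0.65 had an edgeR adjusted p of 0.0638. It passed in DESeq2 (adjusted p = 0.034), without the filter (0.0441), in limma voom with library weights (0.0143) and in edgeR without library 471 (0.0315), and in none of the other 10 settings. Nppb, its B-type relative, differed by 0.70 ± 0.37 (adjusted p = 0.278 in edgeR), with C3H library 471 inside the C57 range.

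Potassium channel genes were mostly lower in C3H where they were called. Of 21 measured, 7 were called, 1 higher and 6 lower in C3H (33.3%, against 7.81% of all genes tested), and the median difference of the list was -0.27. After sham, 2 were called higher and 2 lower in the titled libraries (median 0.04). In the sham libraries without a surgery word 3 of 22 were higher and 2 lower (median 0.01). The shares of all genes tested that were called there were 6.49% and 15.8%. Kcnj14, an inward rectifier, stood at 5.61, 5.00 and 4.97 in C3H and at -0.39, -2.11 and -0.78 in C57, where it had 12 counts or fewer in each library. Library 489 was the lowest, and the difference was 6.05 ± 0.33 (log2, SE; 66.2-fold; edgeR adjusted p = 3.7e-10). Kcnj11, the pore subunit of the ATP-sensitive potassium channel, stood at 5.40, 5.42 and 5.69 in C3H and at 6.59, 4.30 and 6.70 in C57 (-1.13 ± 0.14). Abcc8, which codes for a regulatory subunit of that channel and lies next to Kcnj11 in the gene order, differed by -0.62 ± 0.14. For both genes library 489 was below the C3H libraries and the other C57 libraries were above them.

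Kcnj3 and Kcnj5, whose products form the channel that acetylcholine opens, were lower in C3H by -0.86 ± 0.22 and -0.57 ± 0.17 on the log2 scale. Kcnj12, an inward rectifier of the resting membrane, differed by -0.85 ± 0.20, and Kcna4, a channel of the early transient outward current, by -1.51 ± 0.44 at 6 to 24 counts in the 5 libraries. For the 6 genes lower in C3H, library 489 fell below every C3H library, and Kcnj14 was the 1 potassium channel gene called in the fit with it. Kcnj5 was not called when any of C3H libraries 470 and 486 and C57 libraries 465 and 490 was left out, and Kcnj3 lost its call without 486, 465 or 490, Kcna4 without 471, 486, 465 or 490, Abcc8 without 465 or 490, and Kcnj12 without 490. Kcnj12, Kcnj5 and Abcc8 were chosen for naming after their values were seen.

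Other membrane proteins of the heart muscle cell differed too. Cacna1h, a T-type calcium channel gene, had 4, 2 and 2 counts in C3H and 50, 75 and 85 in C57, and all C57 libraries, 489 included, were far above C3H (-4.56 ± 0.58, edgeR adjusted p = 2.29e-05). Casq1, the skeletal isoform of the calcium store protein calsequestrin, was higher in C3H (1.27 ± 0.34). They were the 2 called of 22 calcium handling genes (9.09%, near the 7.81% of all genes tested), and Casq1 lost its call without 470, 465 or 490. Adra1a, the alpha 1A adrenergic receptor, stood at 2.94, 2.88 and 3.27 in C3H and at 4.57, 0.54 and 4.23 in C57 (-1.38 ± 0.19, edgeR adjusted p = 5.6e-05). It was called only in the fit without library 489, and that library was below every C3H library.

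**Figure D3:**
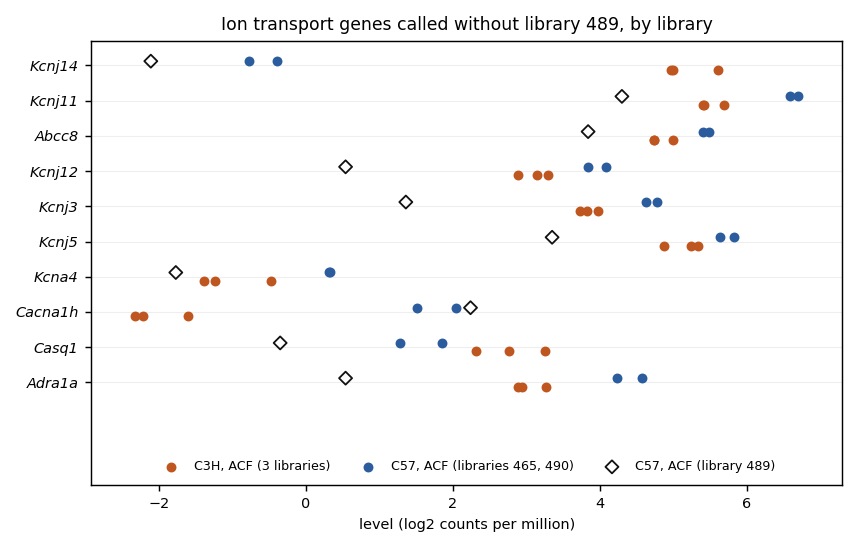
Level of 10 ion transport and receptor genes (log2 CPM) in each ACF library, with library 489 as an open diamond. Kcnj14 and Casq1 lie higher in C3H, the others lie lower in C3H than in C57 libraries 465 and 490, and library 489 is below both strains for the 6 potassium channel genes that were lower in C3H, and for Casq1 and Adra1a.

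Energy metabolism showed few called genes. None of 37 complex I subunits and none of 43 subunits of complexes II to V was called in edgeR, with 4 and 5 at an unadjusted p under 0.05. Their medians were 0.40 and 0.38, and 35 of 37 and 39 of 43 had a positive difference. After sham the medians were -0.13 and -0.14 in the titled libraries, and 0.03 and 0.03 in those without a surgery word. Ndufb4, a complex I subunit, stood at 6.57, 6.59 and 6.56 in C3H and at 5.64, 3.56 and 5.51 in C57 (1.01 ± 0.38, edgeR adjusted p = 0.118), and Uqcrb of complex III differed by 1.02 ± 0.35 (adjusted p = 0.0799 in edgeR). The C3H libraries were above all C57 libraries in Ndufb4, with library 489 far below the rest. With library 489, 1 and 2 subunits were called, all higher in C3H, Ndufb4 and Uqcrb among them. In that library cardiomyocyte markers were also low, and the part of this in the result was not tested.

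Of the mitochondrially encoded transcripts, Cytb differed by -0.20 ± 0.28, Cox2 by -0.02 ± 0.24 and Atpase6 by 0.40 ± 0.27, and none was called in edgeR in either fit, or at an unadjusted p under 0.05 without library 489. Nnt, the mitochondrial transhydrogenase whose gene carries a known deletion in C57BL/6J, had 7482, 10221 and 10234 counts in C3H and 7989, 586 and 8788 in C57 (0.16 ± 0.21, edgeR adjusted p = 0.723). The gene-level counts do not show which exons were read. Apart from library 489 the strains were close in Nnt.

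Single metabolic genes differed. Bdh1, the mitochondrial enzyme of ketone body oxidation, stood at 8.15, 7.73 and 8.44 in C3H and at 6.85, 2.74 and 6.75 in C57 (1.34 ± 0.25), and it passed in all 14 other settings. Acacb, which makes the malonyl-CoA that holds back fatty acid import, was lower in C3H (-0.61 ± 0.14) and was the 1 gene called of 36 fatty acid genes. Hk2, an inducible hexokinase (-0.61 ± 0.18), and Eno1, a glycolytic enolase (-0.68 ± 0.15), were the 2 called of 31 glycolysis genes. The shares called were 2.78% of the fatty acid genes and 6.45% of the glycolysis genes, against 7.81% of all genes tested. Me2, the mitochondrial malic enzyme, was higher in C3H (0.99 ± 0.21). Hk2 lost its call when any further library was left out, and Acacb when 470, 465 or 490 was. Eno1 lost it without 465 or 490 and Me2 without 465, and with library 489 the difference of Me2 was 0.64 (adjusted p = 0.0662 in edgeR).

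Ucp2, a mitochondrial carrier also abundant in blood cells, was a gene whose direction library 489 turned. Its levels were 4.66, 5.00 and 6.07 in C3H and 3.41, 8.35 and 3.35 in C57. Library 489 was the highest and the other C57 libraries were the lowest, so that C3H was higher by 2.02 ± 0.40 without it (edgeR adjusted p = 0.00245) and the fitted difference was -1.48 with it (adjusted p = 0.218 in edgeR). The other genes of this paragraph, also called higher only in the fit without library 489, kept a positive difference with it, from 0.49 for Pnp to 0.90 for Cpne8. Adamts4, described below, did not. They were Pnp, purine nucleoside phosphorylase (2.14 ± 0.29), Cpne8, a copine (1.94 ± 0.28), Peg3, an imprinted zinc finger gene (1.93 ± 0.49), and Atp10d, a lipid flippase subunit (1.62 ± 0.29). Myl12b, a non-muscle myosin light chain with a near-identical relative, differed by 1.60 ± 0.27, Acer2, a ceramidase, by 1.41 ± 0.37, and Pdlim3, a Z-disc protein, by 1.31 ± 0.38. In Pnp, Atp10d, Myl12b and Acer2 library 489 stood above every C3H library, and in Cpne8, Peg3 and Pdlim3 within the C3H range. Acer2, Peg3 and Pdlim3 lost their calls without 486, 465 or 490, and Ucp2 without 490.

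On the lower side, genes called only in the fit without library 489 included Frem2, a basement membrane protein (-1.74 ± 0.36), Irs2, an adaptor of the insulin receptor (-1.63 ± 0.46), Inpp4b, a phosphoinositide phosphatase (-1.55 ± 0.18), Epha4, an ephrin receptor (-1.27 ± 0.28), Rnf150, a RING finger protein (-1.27 ± 0.22), and Igsf1, an immunoglobulin superfamily membrane protein (-1.25 ± 0.23). Library 489 lay below or within the C3H range in each of these, and with it their differences ran from -1.33 for Frem2 to -0.73 for Igsf1. Irs2 lost its call without 470, 471, 465 or 490, and Epha4 without 490.

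Genes of protein folding in the endoplasmic reticulum were lower in C3H where they were called. Of 26 measured genes of the unfolded protein and integrated stress response, 4 were lower and 1 higher (19.2%, against 7.81% of all genes tested; median -0.19). After sham, 0 were called lower and 1 higher in the titled libraries, against 6.49% of all genes tested called in either direction. In those without a surgery word 9 were lower and 0 higher, against 15.8% of all genes tested. Pdia6, a disulfide isomerase, stood at 4.91, 4.89 and 4.86 in C3H and at 5.83, 5.99 and 5.80 in C57 (-0.92 ± 0.20, edgeR adjusted p = 0.00588). Calr, the chaperone calreticulin, was at 6.58, 6.77 and 6.51 against 7.48, 7.52 and 7.38 (-0.80 ± 0.18). All 3 C57 libraries, 489 included, were above all C3H libraries in both genes. Canx, the membrane-bound partner of calreticulin, differed by -0.48 ± 0.14 and was named after its values were seen. Canx kept its call in 4 of 14 settings and lost it when any further library was left out, with a difference of -0.24 with library 489. Pdia6 and Calr lost theirs without 465. Phgdh, the first enzyme of serine synthesis, was lower at 9 counts or fewer in each of the 5 libraries. Atf5, a transcription factor of the mitochondrial stress response, was higher in C3H (0.55 ± 0.15) and lost its call without 470, 465 or 490, and Phgdh lost its call when any further library was left out.

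Antioxidant genes went both ways: Glo1, which detoxifies methylglyoxal, stood at 6.95, 6.82 and 6.96 in C3H and at 5.62, 4.21 and 5.67 in C57 (1.27 ± 0.19), whereas Nfe2l2, the gene of the antioxidant transcription factor NRF2, was lower in C3H (-0.66 ± 0.11). In Glo1 every C3H library was above every C57 library. Gsta1, a glutathione transferase with close relatives, had 0 to 3 counts in C3H and 10 to 32 in C57. These were the 3 called of 27 antioxidant genes (11.1%, against 7.81% of all genes tested). Bnip3, a mitophagy receptor, was higher in C3H at 7.60, 7.77 and 8.37 against 6.63, 4.76 and 6.79 (1.25 ± 0.30), as was Park2, the ubiquitin ligase parkin (1.40 ± 0.31), while Atg7, which starts autophagosome conjugation, was lower (-0.88 ± 0.16). They were the 3 called of 26 apoptosis and autophagy genes (11.5%). Bnip3 lost its call without 486, 465 or 490, Park2 without 465, and Gsta1 without 470, 486, 465 or 490.

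Among 19 p53 target genes, 1 was higher and 2 were lower in C3H (15.8% called, against 7.81% of all genes tested). Cdkn1a, the cyclin-dependent kinase inhibitor induced by stress, stood at 4.91, 5.17 and 6.90 in C3H and at 3.17, 4.39 and 3.74 in C57. C3H library 486 was far above the others, and the difference was 2.48 ± 0.61 (5.57-fold, edgeR adjusted p = 0.0137). Leaving out 486, 465 or 490 as well ended the call. Gadd45a and Gadd45b, stress-induced growth arrest genes, were lower in C3H (-1.32 ± 0.22 and -1.41 ± 0.42). Gadd45a had 28 to 53 counts in C3H and 89 to 101 in C57, library 489 included, with no overlap. Gadd45b lost its call without 470, 471, 465 or 490.

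Clock-related transcription factors gave 3 calls of 20 measured (15.0%, against 7.81% of all genes tested): Nfil3 was higher in C3H (0.99 ± 0.25), and Hlf (-0.94 ± 0.28) and Rora (-0.82 ± 0.23) were lower. Hlf lost its call when any further library was left out, Rora without 470, 486, 465 or 490, and Nfil3 without 486, 465 or 490. The time of day of collection is not given in the labels used here. Fosb, an immediate early gene, was lower in C3H at 25, 43 and 32 counts against 111, 647 and 109 (-1.73 ± 0.50), the 1 call of 26 immediate early genes (3.85%), and library 489 was far the highest. Dusp7, a phosphatase of MAP kinases (-0.72 ± 0.21), Ccnd2, a cyclin (-0.77 ± 0.19), and Tln2, a talin (-0.48 ± 0.13), were the 1 call each of the MAP kinase feedback list (13 tested, 7.69% called), the cell cycle list (20, 5%) and the cytoskeleton list (28, 3.57%). None of these 4 shares was above the 7.81% of all genes tested. Fosb lost its call when any further library was left out, Dusp7 without 470, 486 or 465, Ccnd2 without 465, and Tln2 without 486, 465 or 490. With library 489 the difference of Fosb was -3.33.

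The acute phase and inflammatory list had 2 called of 26 (7.69%) and the list of matricellular genes and ADAMTS proteases 2 of 22 (9.09%), near the 7.81% of all genes tested. Tnfrsf12a, the receptor of the cytokine TWEAK, was higher in C3H (1.12 ± 0.29), and Il1b, interleukin 1 beta, was lower at 1, 5 and 4 counts against 17, 521 and 13 (-2.14 ± 0.55). Library 489 held most of the Il1b counts. Thbs4, a thrombospondin of the loaded heart, stood at 3.44, 2.92 and 3.86 in C3H and at 0.94, -0.74 and 1.69 in C57 (2.13 ± 0.36, edgeR adjusted p = 0.000503). The strains did not overlap in Thbs4. Adamts4, a matrix protease, was higher in C3H at 29, 11 and 39 counts against 10 and 3 in C57 libraries 465 and 490 (2.02 ± 0.59), and the sign turned with the 73 counts of library 489. None of 39 extracellular matrix genes and none of 35 interferon response genes was called in edgeR, with 3 and 4 at an unadjusted p under 0.05. Tbx18, an epicardial transcription factor, was the 1 mesothelial or epicardial marker called (1.23 ± 0.27), while 8 of the 10 markers had a negative difference. Tnfrsf12a lost its call without 470, 486, 465 or 490, Il1b without 470 or 465, Adamts4 without 470, 486 or 490, and Tbx18 without 465 or 490.

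Histocompatibility genes are among the most polymorphic of the mouse. Of 17 measured class I genes 2 were called higher in C3H (11.8%), and of 7 class II genes 2 were called lower (28.6%), against 7.81% of all genes tested. In the titled sham libraries 5 class I genes were called higher and 4 class II genes lower, against 6.49% of all genes tested called. In those without a surgery word, 5 class I genes were higher and 4 lower, and all 6 class II genes tested were lower. Of all genes tested there, 15.8% were called. H2-Q1 had 25, 34 and 20 counts in C3H and 0, 0 and 1 in C57, and H2-Q2 had 12, 20 and 13 against 1, 2 and 2 (edgeR adjusted p = 0.00278 and 0.00802). The class II gene H2-Eb1 had 7, 22 and 5 counts in C3H and 65, 214 and 57 in C57 (-2.44 ± 0.53), and H2-Ab1 had 4, 18 and 4 against 33, 248 and 39 (-2.05 ± 0.62). No C57 library overlapped with C3H in these 4 genes. They belong to families with near-identical members, so the division of reads among them is uncertain. H2-Ab1 lost its call without 470, 486, 465 or 490, H2-Q2 without 465 or 490, and H2-Q1 and H2-Eb1 without 465. Macrophage markers, which share cells with class II genes, gave no call among 14 without library 489, with 0 at an unadjusted p under 0.05 and 3 calls, all lower in C3H, with that library.

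**Figure D4:**
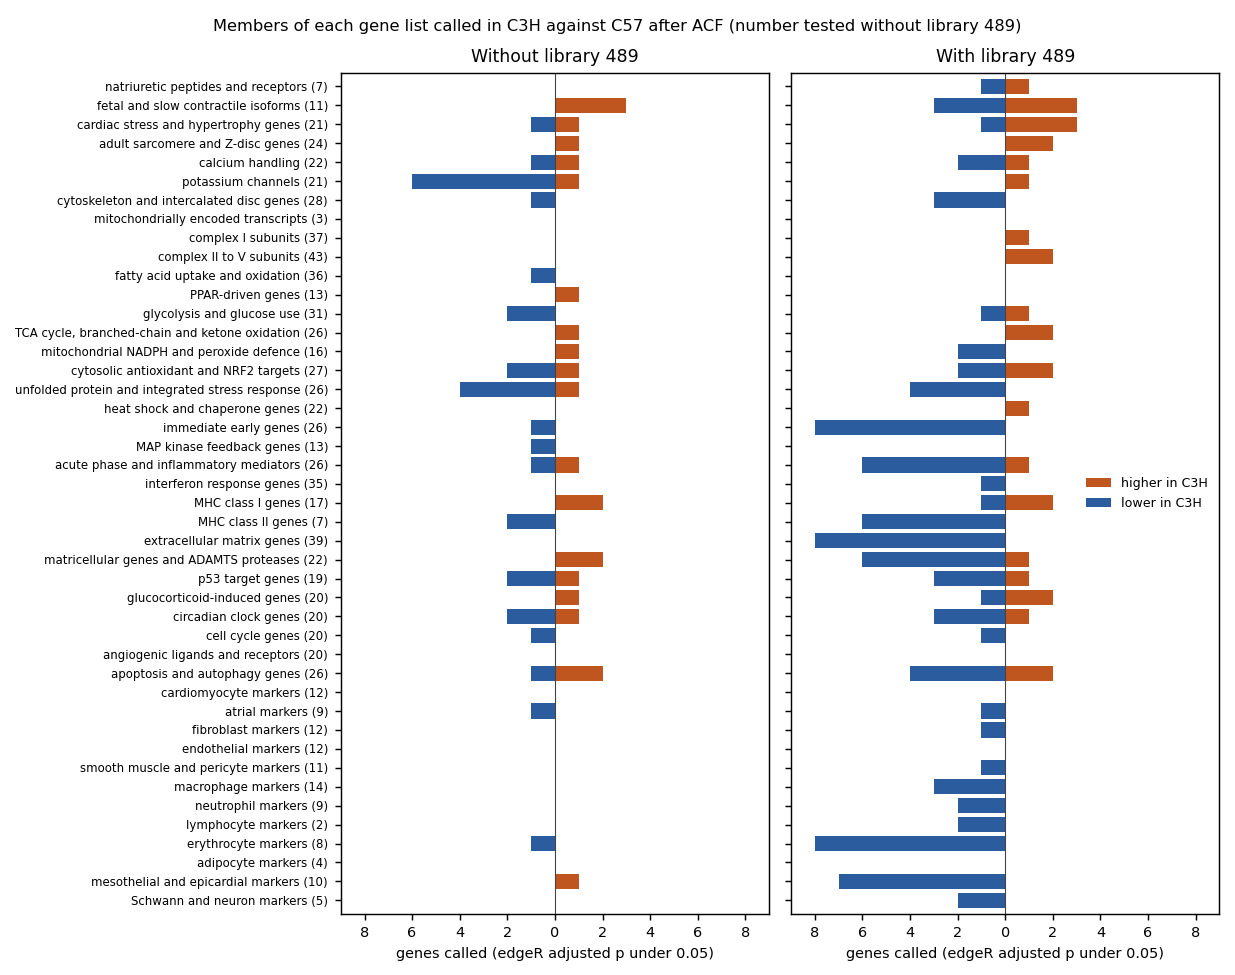
Number of genes of each list called higher (to the right of zero) or lower (to the left) in C3H after ACF, without library 489 in the left panel and with it in the right panel, with the number tested in brackets. Potassium channels have the most calls in the left panel (1 higher, 6 lower), and in the right panel the erythrocyte, extracellular matrix and immediate early lists each have 8 lower.

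Many of these strain differences were also present after sham surgery. In the 3 against 3 sham libraries whose titles carry the surgery, 879 of 13544 genes were called in the same fit (6.49%). Of the 1058 genes called after ACF, 576 were called in the same direction after sham (54.4% of the ACF calls and 65.5% of the sham calls), none in the opposite direction, and 1011 had the same sign. In the 12 sham libraries without a surgery word, fitted on their own, 2072 of 13096 genes were called (15.8%). Among these libraries the C3H titles all share an L code and the C57 titles all share a different one. Strain and L code therefore cannot be told apart there. Of the ACF calls 694 were called there in the same direction (65.6% of the ACF calls and 33.5% of those calls) and 2, Plekhh1 and Syt3, in the opposite one. Of the genes called both with and without library 489, 76.0% were called the same way in these libraries, of the 357 called only without it 45.1%, and of the 925 called only with it 24.6%.

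Kcnj14 was an example of a difference of equal size: 6.05 after ACF, 6.06 ± 0.28 after sham and 6.30 in the libraries without a surgery word, where the lowest, median and highest levels were 6.68, 7.00 and 7.11 in C3H and 0.22, 0.74 and 1.13 in C57. Gbp10 differed by 4.52 and 4.67 in the sham comparisons, and Cyfip2 by -2.90 and -3.20. The strains were apart in every comparison of these genes.

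Other genes differed between the strains after ACF with little or no difference after sham. Cdkn1a stood at 2.59, 2.92 and 2.86 in the C3H sham libraries and at 2.05, 2.90 and 2.59 in the C57 ones, where the strains overlapped (0.27 ± 0.55, edgeR adjusted p = 0.88). Peg3 differed by 0.19 after sham and Igsf1 by -0.28, and Bnip3 by 0.23. Of the 1058 genes, 296 were called in neither sham comparison. The test of the difference itself, ACF strain difference minus sham strain difference, called none of 13544 genes in edgeR (0%), with 723 at an unadjusted p under 0.05 and a smallest adjusted p of 0.0737. With library 489 it called none either, with 1359 at an unadjusted p under 0.05. DESeq2 called 1 gene without library 489 and 3 with it, and limma voom with library weights called 121 and 210. Cdkn1a had a difference between the surgeries of 2.20 ± 0.80 (unadjusted p = 0.0123, adjusted p = 0.916 in edgeR), Peg3 of 1.74 (unadjusted p = 0.0131), Nppa of 1.81 (unadjusted p = 0.0433) and Gadd45b of -1.88 (unadjusted p = 0.00356), all with adjusted p over 0.9 in edgeR. With library 489 these were 1.86 for Cdkn1a, 0.63 for Peg3, 1.28 for Nppa and -2.03 for Gadd45b. Without C3H library 486 the values fell to 1.33 for Cdkn1a and 0.88 for Peg3 (-0.25 for Peg3 with library 489 included), and without C57 sham library 467 to 1.18 for Nppa. Gadd45b passed in limma voom with library weights (adjusted p = 0.0482, and 0.0424 with library 489).

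Myh7, the slow myosin heavy chain of the fetal and failing heart, showed the reverse pattern. After sham it stood at 9.94, 10.02 and 9.98 in C3H and at 4.45, 4.13 and 6.16 in C57, a difference of 4.82 ± 0.65 (edgeR adjusted p = 3.89e-05). After ACF it stood at 10.06, 11.03 and 11.31 in C3H and at 8.22, 6.82 and 10.41 in C57, a difference of 1.2 ± 0.64 (edgeR adjusted p = 0.299). The C57 libraries after ACF were all above those after sham, and library 490 was above the lowest C3H library. In the libraries without a surgery word the strains were apart by 5.25 ± 0.19, with levels of 10.75 to 11.18 in C3H and 5.26 to 6.19 in C57. The difference between the surgeries was -3.62 ± 0.84 (unadjusted p = 0.000347, adjusted p = 0.892 in edgeR) and -3.10 ± 0.99 with library 489. It was -2.11 without library 490 and -4.40 in limma voom with library weights, where its adjusted p was 0.0475.

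Spna1, which codes for the erythroid alpha spectrin chain, had the smallest p of the test between surgeries. It had 6, 10 and 5 counts in C3H after ACF and 332, 647 and 293 in C57, a difference of -5.46 ± 0.32 (edgeR adjusted p = 8.14e-10). After sham it stood at 1.68, 0.97 and 0.68 (log2 CPM) in C3H and at 3.92, 4.00 and 4.13 in C57, a difference of -2.86 ± 0.24. The C57 libraries 465 and 490 were at 4.19 and 3.80 after ACF, near the C57 sham levels, and all C3H ACF libraries were below all C3H sham libraries. The difference between the surgeries was -2.60 ± 0.42 (unadjusted p = 5.44e-06, adjusted p = 0.0737 in edgeR) and -3.15 ± 0.54 with library 489 (adjusted p = 0.17 in edgeR). Without library 489 it passed in DESeq2 (adjusted p = 0.000181) and in limma voom with library weights (adjusted p = 0.0481). The other 7 measured erythrocyte markers were not called without library 489, and their differences were positive.

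**Figure D5:**
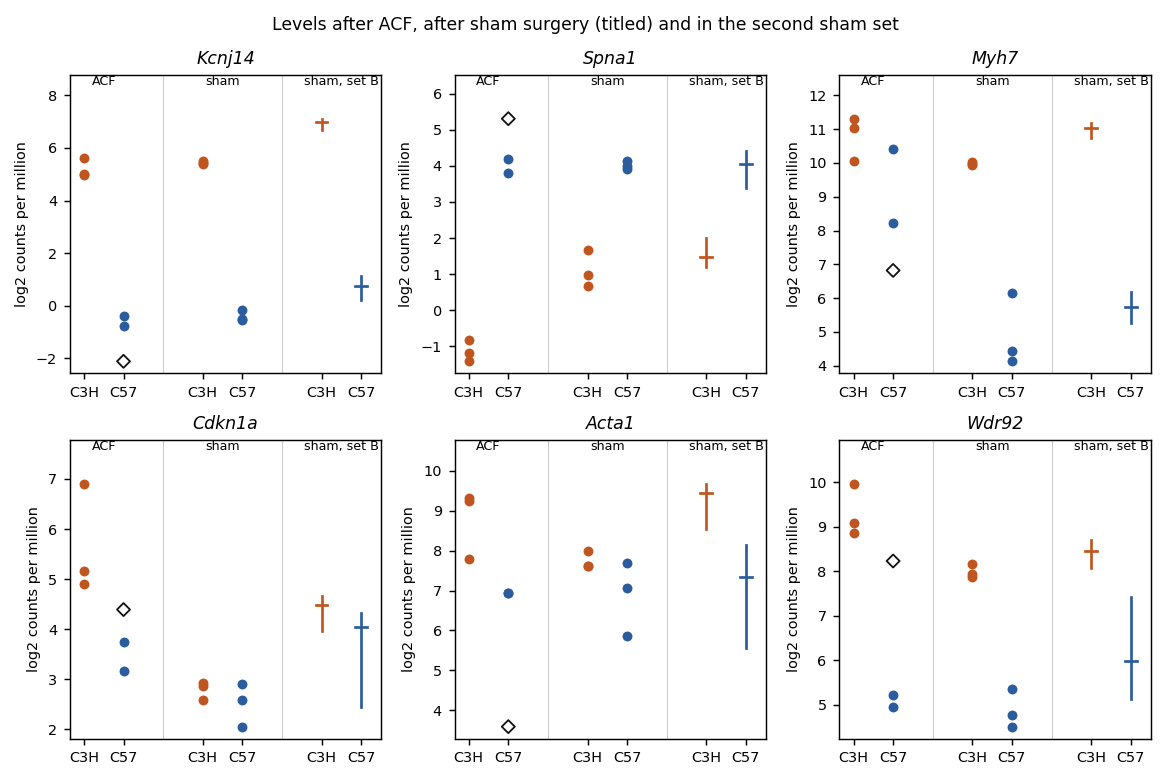
Levels (log2 CPM) of 6 genes in C3H and C57 after ACF and after sham surgery, 1 point per library with library 489 as an open diamond, and in the 6 sham libraries per strain without a surgery word (set B), where a line gives the range and a bar the median. The levels of set B were normalized separately. Kcnj14 is apart by a like amount in all 3 comparisons, Myh7 is closer between strains after ACF, and Spna1 is further apart.

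Genes called higher in C3H had a neighbour called the same way at a greater share than all placed genes, and genes called lower had one at a share near that of all. Of 12909 tested genes placed in the gene order of GRCm38.p6, 7.21% had a neighbour called higher in C3H, and of the 484 placed genes that were themselves called higher, 80 (16.5%) had one. For genes called lower the shares were 7.59% and 9.22% (47 of 510). There were 7 runs of 3 neighbouring genes called the same way. One held Ganc, Capn3 and Zfp106, where Capn3, the muscle calpain, was higher in C3H by 2.36. Another held Myh15, Ift57 and Cd47, with Cd47, the signal that restrains engulfment by macrophages, higher by 1.09 and the ciliary transport gene Ift57 by 1.06. A further run held Ppp1r2, Apod and Bdh1, with Apod, a lipid-carrying lipocalin, higher by 2.12.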

How the data were processed

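RNA of isolated cardiomyocytes was measured by sequencing, and the deposited table holds RSEM expected counts per gene symbol that the authors did not normalize (30743 genes, 13.9% of values not whole). Per the submitters' processing notes, the tools were RSEM 1.2.0, Bowtie and CASAVA 1.8.2 with the build mm9, while the labels' extract protocol describes mapping by the provider's own algorithm. The build is that of C57BL/6J, and whether C3H reads align less often was not tested. RSEM divides reads among near-identical and overlapping genes.

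Expected counts were rounded and analysed in R 4.3.3 with edgeR 4.0.16 (TMM, filter on low counts by group, quasi-likelihood F test, Benjamini-Hochberg, threshold 0.05). One model of 8 group means used the 24 libraries whose titles carry the surgery, or 23 without library 489. These included the mice with exchanged genomes, whose libraries entered the scaling, the filter and the spread but no difference between groups. The SE is the log2 difference divided by the square root of F, and each level is a log2 CPM computed with 2 as prior count. The 24 libraries held 15.89 to 20.77 M counts. No 2 replicates of the same ACF group used here agreed within sampling noise. The labels do not say whether libraries came from separate animals, so each p-value reflects only the variation among these libraries. In simulated data of 13544 genes shaped on the fit without library 489, 59 of 100 genes changed 2-fold and 93 of 100 changed 4-fold were called.

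The comparison, the 44 gene lists and the named genes were chosen with earlier results of these data known. Named were, in each direction, the 12 largest differences among genes called in both fits and the 8 largest among genes called only without library 489 (without overlap, average log2 CPM 3 or more), genes called between surgeries (none), up to 4 called members of each list, up to 2 members of a list without calls as values, and Nnt, Nppa, Nppb, Myh6, Myh7, Acta1, Cdkn1a, Kcnj14, Alas2, Hba-a2, Cytb, Cox2 and Atpase6. Predicted, clone and pseudogene symbols were skipped (155 of the 1058 calls). A few genes meeting these criteria are left unreported here. Alternatives were edgeR with DESeq2's size factors, DESeq2 1.42.0 itself, testing without the filter, the wild-type or ACF libraries alone, limma 3.58.1 voom with library weights, the L or D code of the titles as a factor, and each library left out in turn.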

Additional observations from a re-analysis of the deposited data

How the results depend on the processing

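The count of genes called after ACF without library 489 (1058) was 2524 in limma voom with library weights and 232 with the L code as a factor, and 433 to 1002 when a further library was left out. The lowest counts were those without C57 library 465 (433) or 490 (496). With library 489 the count (1626) was 50 on the 6 ACF libraries alone, 435 on the 12 titled wild-type libraries, 2516 in limma voom with library weights, which gave library 489 a weight of 0.0366, and 183 with the L code as a factor. Leaving out 1 library gave 584 to 3417, with 688, 1009 and 584 without C3H libraries 470, 471 and 486, and 2896, 1058 and 3417 without C57 libraries 465, 489 and 490. The share of calls higher in C3H, 38.4% with library 489, was 66.0% on the 6 ACF libraries, 53.6% on the 12, 50.5% in voom, 60.1% with the L code and 32.2% to 52.3% with 1 library left out. The cause was not tested.

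The test between surgeries called 0 genes in edgeR with and without library 489, 3 and 1 in DESeq2, 210 and 121 in voom, 1 without the filter (fit without library 489), and 0 to 1 with 1 library left out in either fit. Spna1 was the gene called without the filter, without C3H sham library 485 (fit without library 489), without C57 library 490 (fit with it), and in DESeq2 in both fits. Adding library 489 back reversed Adamts4 (-0.30), Ucp2 (-1.48), Alas2 (-9.76) and Hba-a2 (-9.22).

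Of 88 named genes called without library 489, 21 were called in every other setting. With library 489 added back, 32 lost the call and kept their direction, and Ucp2 and Adamts4 lost it with the direction turned. The call was lost by 55 with the L code, 17 with the D code, 18 on the ACF libraries alone and 49 when some further library was left out. None lost it in voom or with DESeq2's size factors, and 1, Phgdh, in DESeq2. Of the named genes not called, 19 passed in some setting, Nppa and Myh6 among them. No paired analysis was possible because the replicate numbers are not shared between groups. Genes with under about 10 counts per library are limited by depth.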

Other observations

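Some genes had no count at all in 1 strain after ACF. Among genes called in both fits with at least 10 counts in each library of the other strain, 5 had 0 counts in the 3 C3H libraries and 14 had 0 in the 3 C57 libraries. Olfr1033, an olfactory receptor gene, had 54 to 116 counts in C57 and was at least 98.1-fold higher there, against a floor of 3 counts over the 3 C3H libraries, with 0 counts in the 9 C3H sham libraries. In the other direction, Bpifb4 had 77 to 128 counts in C3H and was at least 90.7-fold higher, Klk1b22, a kallikrein gene, at least 26.1-fold and Ifi202b, an interferon-inducible gene, at least 24.2-fold, and all 3 had 0 counts in the 9 C57 sham libraries. Klk1b22 and Ifi202b have near-identical relatives, so their values are uncertain. The floors cover counting error only, and these genes were chosen after their values were seen.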
